A study of Mus musculus with 12 samples.

Results

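The 7 genes described here mark the airway epithelium of the lung. *Scgb1a1*, *Scgb3a1*, *Scgb3a2* and *Cyp2f2* mark club cells, *Foxj1* and *Tppp3* mark ciliated cells, and *Sox2* marks the airway lineage as a whole. They were chosen by name, with earlier results of these data known. They were found by their symbols among the 39017 genes of the deposited count table, all 7 under 1 identifier each.

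RNA was sequenced from 12 mouse lung tumors in 4 groups of 3. All mice were C57BL/6 and carried p53 Fl/Fl and the CCSP-rtTA transgene, in which the promoter of club cell secretory protein, the product of *Scgb1a1*, drives the doxycycline-dependent activator rtTA. All received 6000 viral units of Lenti.TRE-PPARαΔ13_PGK-Cre into the airways, which brings Cre to start the tumors together with a doxycycline-inducible dominant negative form of mouse PPARα. The KP and KPG1 tumors came from mice on a regular diet, and the KP-PPARαΔ13 and KPG1-PPARαΔ13 tumors from mice fed doxycycline at 625 mg/kg for 15 days, so that diet and induction changed together. KPG1 and KPG1-PPARαΔ13 mice carried Glut1 Fl/Fl in addition, floxed alleles of the glucose transporter gene *Slc2a1*. Tumors were macrodissected 26 weeks after initiation, dissociated and depleted of CD45-positive immune cells, and polyA RNA of the remaining cells was used. By the number in the labels that is read as the mouse, the 12 tumors came from 9 mice, 2 tumors each from 1 KP, 1 KPG1 and 1 KPG1-PPARαΔ13 mouse. The KP tumors were all from females and the KPG1 tumors all from males, so sex and genotype cannot be told apart in that comparison. Of the 3 KP-PPARαΔ13 tumors 1 was from a female, and of the 3 KPG1-PPARαΔ13 tumors 2 were.

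Club cells are secretory cells of the conducting airway. They release secretoglobins such as the products of *Scgb1a1*, *Scgb3a1* and *Scgb3a2* into the airway lining fluid, and they metabolize foreign compounds through enzymes such as the cytochrome P450 encoded by *Cyp2f2*. Ciliated cells carry many motile cilia that move mucus, and their gene program depends on the transcription factor encoded by *Foxj1*. *Tppp3* encodes a protein that binds microtubules, and *Sox2* a transcription factor that marks the airway branch of the lung epithelium during development.

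Each tumor gave between 25263794 and 32654223 counts. The label check on the 2 genes that the design changes was mixed. *Ppara*, whose count may include reads of the transgene, stood at 64.6 and 246.1 CPM (counts scaled to a common library size with TMM factors) in the tumors labelled KP-PPARαΔ13 2 and 3, but at 2.71 CPM in the tumor labelled KP-PPARαΔ13 1, the lowest of all 12. It stood at 8.90, 19.2 and 17.7 CPM in the 3 tumors labelled KPG1-PPARαΔ13, beside 7.24 to 15.7 CPM in the 6 tumors on the regular diet. *Slc2a1* stood at 30.2 to 64.0 CPM in the tumors labelled KPG1 and at 35.3 to 57.7 CPM in those labelled KP. In the induced tumors it stood at 108 to 153 CPM in KP-PPARαΔ13 and at 23.7 to 54.5 CPM in KPG1-PPARαΔ13, without overlap (log2 fold change -1.51 ± 0.36 SE, edgeR adjusted p = 0.462). The KP-PPARαΔ13 tumors also lay above the KP tumors without overlap (1.48 ± 0.36, adjusted p = 0.289). A count over the whole gene does not show which exons were read. Group names below are therefore those of the labels, and directions between groups rest on them.

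The tumors expressed alveolar genes far above the airway genes. Per transcript length (TPM, reads per exon length scaled to 1 total), the 8 alveolar type 2 markers summed to 46525 to 140554 TPM over the 12 tumors, and the 7 airway genes to 116.0 to 1484 TPM. Summed levels of the 8 alveolar type 1 markers ran from 357 CPM in KP tumor 2 to 4516 CPM in KP-PPARαΔ13 tumor 3. In bulk RNA of this kind, fewer cells of a type and less RNA per cell cannot be told apart. Of the other cell types, marker lists summed to 71.3 to 266 CPM for leukocytes (8 genes), 85.5 to 515 CPM for endothelium (6), 112 to 638 CPM for mesenchyme (8), 5.61 to 47.3 CPM for basal cells (6) and 0.861 to 3.52 CPM for neuroendocrine cells (8). None of the genes in these lists or the alveolar and goblet lists was called by edgeR or limma voom in any comparison, and DESeq2 called 0 to 1 of a list. Over all genes tested edgeR called 0.0% to 0.0363%. For induction in KPG1 all 8 alveolar type 2, 8 alveolar type 1 and 6 endothelial genes were lower. An unadjusted edgeR p under 0.05 was found for 4 of these alveolar type 2 genes (10.8% of all genes). For induction in KP 7 alveolar type 2 genes were lower, and all 8 alveolar type 1 and 6 endothelial genes were higher.

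The promoters of *Cyp2f2* and *Scgb3a1* are shown because both genes varied widely among the tumors, with different tumors at the top. Promoter sequence came from RefSeq on GRCm38.p6, the genome of mm10, where 3 of the 7 genes matched. Capitals mark letters of 3 short motifs searched on both strands, and no 2 of the matches overlap. The motifs are the NKX2-1 core CAAGTG, the forkhead core TGTTTNC and the partial RFX site GTTNCC. The printed stretches end before the first annotated transcript base.
*Cyp2f2*, chr7:27119705-27119908, plus strand: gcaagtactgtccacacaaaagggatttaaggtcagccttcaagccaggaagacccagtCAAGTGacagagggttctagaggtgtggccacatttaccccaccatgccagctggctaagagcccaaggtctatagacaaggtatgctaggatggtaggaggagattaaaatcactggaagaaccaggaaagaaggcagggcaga
*Scgb3a1*, chr11:49663345-49663594, plus strand: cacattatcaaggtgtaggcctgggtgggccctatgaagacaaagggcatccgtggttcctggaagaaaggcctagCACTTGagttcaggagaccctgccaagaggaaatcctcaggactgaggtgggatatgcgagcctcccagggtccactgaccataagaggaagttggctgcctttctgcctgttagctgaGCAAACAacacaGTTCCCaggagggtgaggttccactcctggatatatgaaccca
The *Cyp2f2* stretch held 1 NKX2-1 core. The *Scgb3a1* stretch held an NKX2-1 core and a forkhead core on the other strand and a partial RFX site on the strand shown. The search covered the 250 bases before the RefSeq start, of which 204 are printed for *Cyp2f2*. Of 32851 mouse promoters searched over the same 250 bases, 11.6% held CAAGTG, 17.8% TGTTTNC and 39.4% GTTNCC, so each match is a common one. *Nkx2-1*, which encodes the lung transcription factor that gives the first motif its name, stood at 208 to 533 CPM in the 12 tumors.

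Among the 7 genes the order of mean level per length was *Scgb1a1*, *Cyp2f2*, *Scgb3a2*, *Scgb3a1*, *Tppp3*, *Foxj1* and *Sox2*. *Scgb1a1* averaged 271 ± 330 TPM (SD, n = 12 tumors), *Cyp2f2* 121 ± 152 TPM, *Scgb3a2* 82.5 ± 108 TPM, *Scgb3a1* 41.5 ± 58.3 TPM and *Tppp3* 39.3 ± 22.6 TPM. These 5 neighbors did not separate beyond their spread: *Scgb1a1* exceeded *Cyp2f2* in 7 of 12 tumors, *Cyp2f2* exceeded *Scgb3a2* in 8, *Scgb3a2* exceeded *Scgb3a1* in 8, and *Scgb3a1* exceeded *Tppp3* in 4. *Foxj1*, at 1.75 ± 1.50 TPM, was below *Tppp3* in all 12 tumors, and *Sox2*, at 0.349 ± 0.377 TPM, was below *Foxj1* in 11. The leading gene changed with the tumor. *Scgb1a1* was the highest of the 7 in 5 tumors, *Cyp2f2* in 5 and *Scgb3a2* in 2, KP tumor 2 and KPG1-PPARαΔ13 tumor 2.

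**Figure D1:**
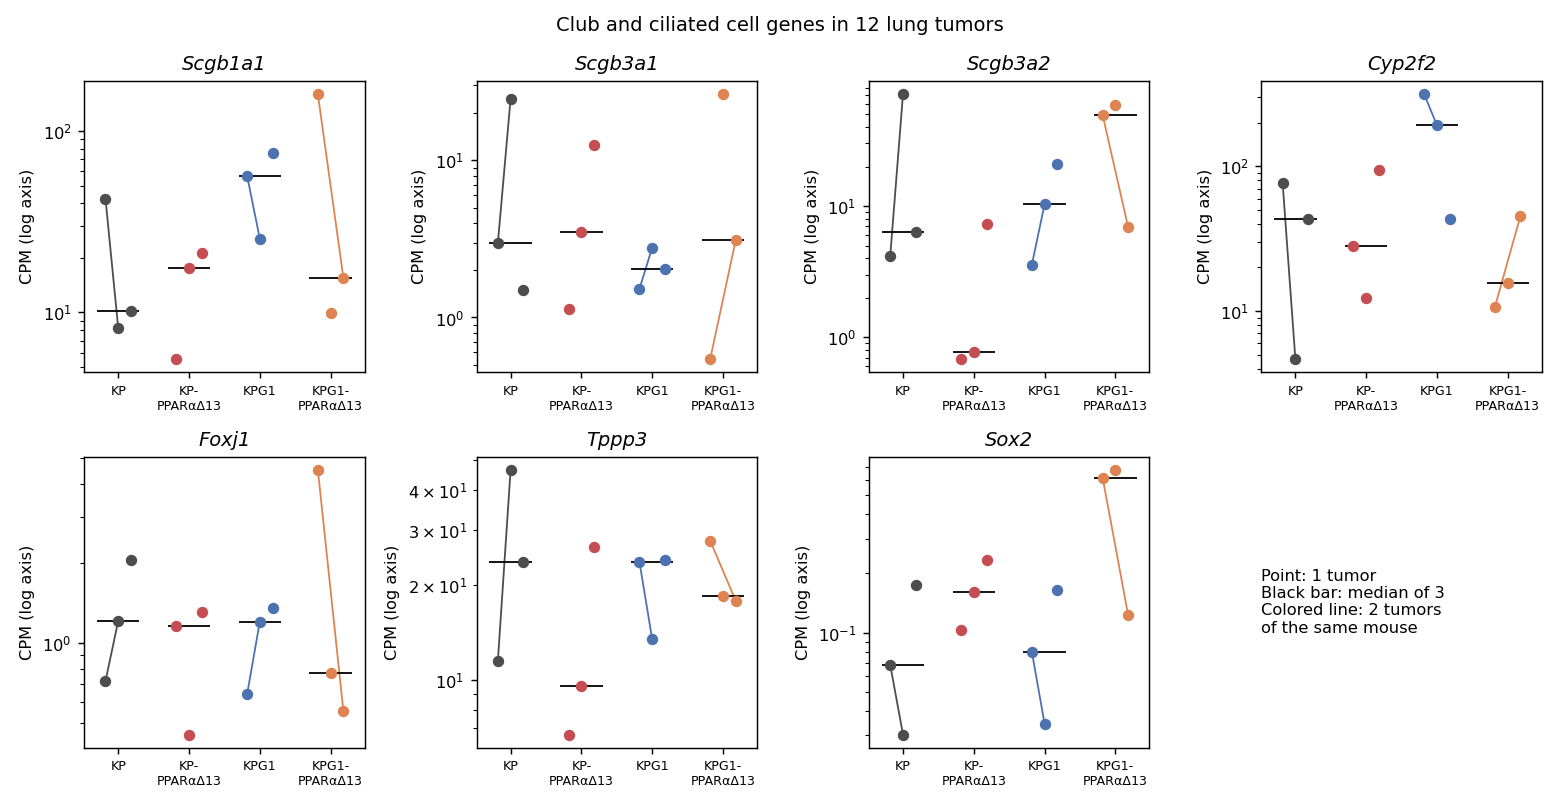
Each panel plots 1 gene in CPM on a log axis against the 4 labelled groups, with 1 point per tumor, a black bar at the median of 3, and a line between 2 tumors of the same mouse. Tumors of 1 group spread over as much as 48.3-fold (*Scgb3a1* in KPG1-PPARαΔ13), and no gene separates the groups of any of the 4 comparisons.

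None of the 7 genes separated the compared groups, and none passed the test. The question of the design is what PPARαΔ13 induction and Glut1 deletion change in tumor cells, and it gives 4 comparisons and the difference between the 2 induction changes. Counts were fitted with edgeR's quasi-likelihood test over 16527 genes and all 12 tumors, with a Benjamini-Hochberg adjusted p under 0.05 as a call. The test covered 6 of the 7 genes, as *Sox2* did not pass the filter on low counts. Between KP-PPARαΔ13 and KP 0 of the 6 were called (0.00605% of all genes tested were), 1 had an unadjusted p under 0.05 (11.4% of all genes), and 0 of the 7 had groups that did not overlap (13.3%). Between KPG1-PPARαΔ13 and KPG1 the counts were again 0 called (0.00605%), 1 at the unadjusted threshold (10.8%) and 0 without overlap (20.6%). Between KPG1 and KP they were 0 (0.0363%), 0 (6.23%) and 0 (9.95%). Between KPG1-PPARαΔ13 and KP-PPARαΔ13 they were 0 (0.0303%), 1 (9.69%) and 0 (17.6%). For the difference between the 2 induction changes 0 were called (0.0%) and 1 had an unadjusted p under 0.05 (11.8%). The last comparison uses the same tumors as the first 4, and comparisons that share a group are not independent. DESeq2 and limma voom also called 0 of the 6 in all 5 comparisons, with 1 to 2 and 0 to 1 of them under the unadjusted threshold. The median fold change of the 6 genes was -0.61 on the log2 scale for induction in KP (all genes -0.01) and 0.54 for induction in KPG1 (all genes 0.02). It was -0.37 for KPG1 against KP, 0.90 between the induced groups and 1.15 for the difference of the induction changes, with -0.03, 0.01 and 0.03 over all genes.

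**Figure D2:**
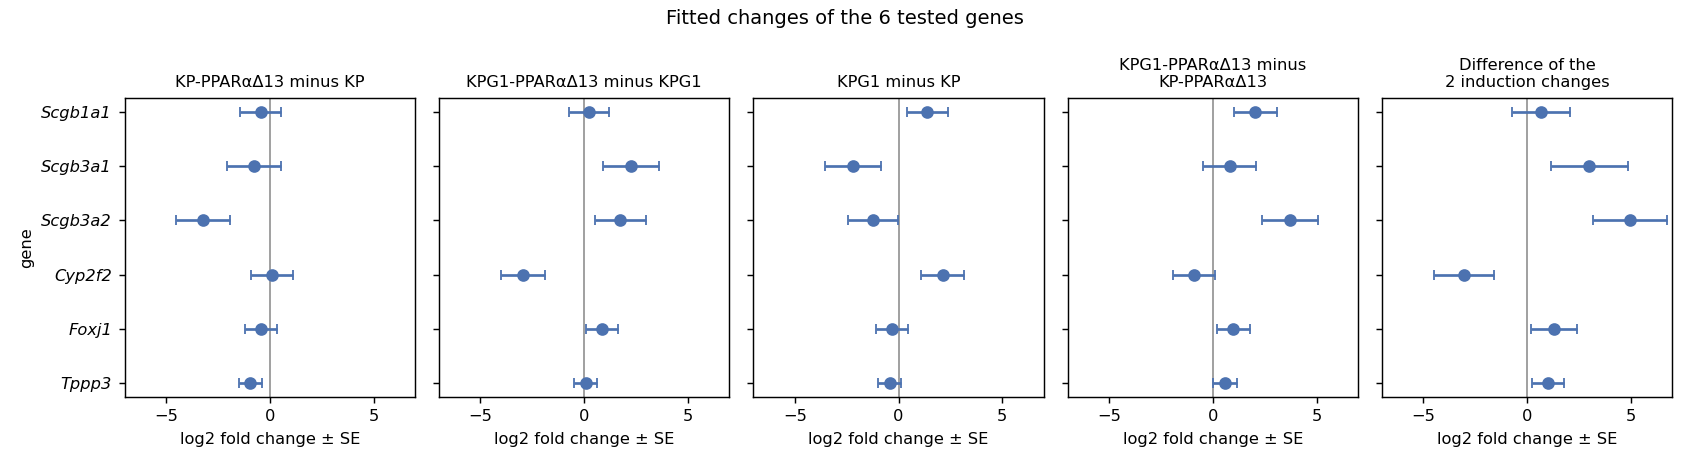
Points give the log2 fold change of the 6 tested genes in each of the 5 comparisons, with bars of 1 SE from edgeR. The changes farthest from 0 belong to *Scgb3a2* (4.96 for the difference of the induction changes), and none has an adjusted p under 0.05.

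The 4 club cell genes spread more within groups than most genes of their level. The SD of log2 CPM within groups was 1.41 for *Scgb1a1*, 1.93 for *Scgb3a1*, 1.79 for *Scgb3a2* and 1.59 for *Cyp2f2*, against a median of 0.425 over the 16527 genes tested. Of genes within 2-fold of the same mean CPM, 97.8%, 97.2%, 98.5% and 99.1% had a lower within-group SD. For *Foxj1* (SD 0.976) and *Tppp3* (0.776) these shares were 66.1% and 86.4%. The wide spread sets the size of the standard errors below.

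*Scgb1a1* (ENSMUSG00000024653; mm10 chromosome 19, 9083636 to 9087958, minus strand) encodes the main secretoglobin of club cells. It stood at 42.3, 8.19 and 10.2 CPM in KP tumors 1 to 3, at 5.55, 17.6 and 21.3 CPM in the KP-PPARαΔ13 tumors, at 56.6, 25.5 and 76.0 CPM in the KPG1 tumors, and at 159, 9.96 and 15.5 CPM in the KPG1-PPARαΔ13 tumors. KPG1-PPARαΔ13 tumor 1 was the highest of the 12, KP-PPARαΔ13 tumor 1 the lowest, and every pair of compared groups overlapped. The group means were 20.2 ± 19.1, 14.8 ± 8.24, 52.7 ± 25.5 and 61.6 ± 84.6 CPM (SD, n = 3). The log2 fold change was -0.45 ± 0.98 (SE) for induction in KP (edgeR adjusted p = 0.915), or 0.69 without KP tumor 1. For induction in KPG1 it was 0.22 ± 0.97 (adjusted p = 0.950), or -2.05 without KPG1-PPARαΔ13 tumor 1 and -0.14 without KPG1 tumor 2. The difference of these 2 changes was 0.67 ± 1.38 (adjusted p = 0.869), or -1.60 without KPG1-PPARαΔ13 tumor 1 and -0.47 without KP tumor 1. Between KPG1 and KP the value was 1.38 ± 0.99 (adjusted p = 0.831), or 2.52 without KP tumor 1. Between the induced groups it was 2.05 ± 1.01 (adjusted p = 0.531), or -0.22 without KPG1-PPARαΔ13 tumor 1. Because the CCSP promoter drives the activator in all groups, *Scgb1a1* can be set beside *Ppara* in the induced tumors. The tumor with the highest *Scgb1a1* (159 CPM) had 8.90 CPM of *Ppara*, the tumors with 246.1 and 64.6 CPM of *Ppara* had 21.3 and 17.6 CPM of *Scgb1a1*, and the tumor with the lowest *Ppara* (2.71 CPM) had the lowest *Scgb1a1* (5.55 CPM). KPG1-PPARαΔ13 tumors 2 and 3 had 9.96 and 15.5 CPM of *Scgb1a1* and 19.2 and 17.7 CPM of *Ppara*. The 2 genes did not follow 1 order over these 6 tumors. Leaving aside KPG1-PPARαΔ13 tumor 1, a choice made after its values were seen, their orders differed only between tumors 2 and 3 of that group. Whether the CCSP promoter had a part in the *Ppara* values was not tested. The activator itself was not analysed here.

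*Scgb3a1* (ENSMUSG00000064057; mm10 chromosome 11, 49663610 to 49665118, plus strand) encodes a secretoglobin found mainly in the larger airways. It stood at 2.98, 24.7 and 1.50 CPM in the KP tumors, at 1.13, 3.49 and 12.6 CPM in the KP-PPARαΔ13 tumors, at 1.52, 2.79 and 2.05 CPM in the KPG1 tumors, and at 0.546, 26.4 and 3.11 CPM in the KPG1-PPARαΔ13 tumors. The KPG1 tumors lay close together, while each other group held 1 tumor far above the other two. The log2 fold change was -0.76 ± 1.29 for induction in KP (edgeR adjusted p = 0.884) and 2.24 ± 1.35 for induction in KPG1 (adjusted p = 0.570). The difference of these 2 changes was 3.00 ± 1.86 (adjusted p = 0.528), or 0.55 without KPG1-PPARαΔ13 tumor 2 and 0.88 without KP tumor 2. Both induction changes turned without a single library, the first to 1.35 without KP tumor 2 and the second to -0.21 without KPG1-PPARαΔ13 tumor 2. KPG1 against KP gave -2.20 ± 1.35 (adjusted p = 0.812), which was -0.08 without KP tumor 2, and the induced groups differed by 0.80 ± 1.29 (adjusted p = 0.856), which was -1.64 without KPG1-PPARαΔ13 tumor 2.

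*Scgb3a2* (ENSMUSG00000038791; mm10 chromosome 18, 43764289 to 43767399, plus strand) encodes a further secretoglobin of club cells. It stood at 4.18, 71.1 and 6.33 CPM in the KP tumors, at 0.685, 0.775 and 7.24 CPM in the KP-PPARαΔ13 tumors, at 3.56, 10.3 and 20.9 CPM in the KPG1 tumors, and at 49.4, 59.3 and 6.93 CPM in the KPG1-PPARαΔ13 tumors. It had the widest range of the 7 genes, 104-fold from KP-PPARαΔ13 tumor 1 to KP tumor 2. The log2 fold change was -3.23 ± 1.31 for induction in KP (edgeR adjusted p = 0.401), which was -0.86 without KP tumor 2 and -5.21 without KP-PPARαΔ13 tumor 3, and 1.73 ± 1.23 for induction in KPG1 (adjusted p = 0.644). The difference between the 2 induction changes was 4.96 ± 1.79 (adjusted p = 0.368), or 2.59 without KP tumor 2. Between the induced groups *Scgb3a2* differed by 3.73 ± 1.34 (adjusted p = 0.484), which was 5.71 without KP-PPARαΔ13 tumor 3, and KPG1 against KP gave -1.23 ± 1.21 (adjusted p = 0.874), which turned to 1.14 without KP tumor 2.

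*Cyp2f2* (ENSMUSG00000052974; mm10 chromosome 7, 27119909 to 27133660, plus strand) encodes the cytochrome P450 that activates naphthalene in club cells. Its exons share 274 bases with the antisense gene *Gm15883*, which collected 24 counts in all. It stood at 77.2, 4.67 and 43.4 CPM in the KP tumors, at 28.2, 12.3 and 94.0 CPM in the KP-PPARαΔ13 tumors, at 316, 193 and 43.2 CPM in the KPG1 tumors, and at 10.7, 15.6 and 45.6 CPM in the KPG1-PPARαΔ13 tumors. The 2 highest tumors were the KPG1 pair of the same mouse, and the third KPG1 tumor lay below the highest KPG1-PPARαΔ13 tumor, so the groups overlapped. The log2 fold change was 0.10 ± 0.99 for induction in KP (edgeR adjusted p = 0.983), which was -0.43 without KP tumor 2 and -1.05 without KP-PPARαΔ13 tumor 3. For induction in KPG1 it was -2.94 ± 1.07 (adjusted p = 0.420), and the difference between the induction changes was -3.04 ± 1.44 (adjusted p = 0.435), or -1.89 without KP-PPARαΔ13 tumor 3. KPG1 against KP gave 2.14 ± 1.03 (adjusted p = 0.787), and the induced groups differed by -0.90 ± 1.00 (adjusted p = 0.778), which was 0.25 without KP-PPARαΔ13 tumor 3.

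*Foxj1* (ENSMUSG00000034227; mm10 chromosome 11, 116330704 to 116335399, minus strand), the regulator of motile cilia, had 14 to 132 counts per tumor. It stood at 0.719, 1.21 and 2.05 CPM in the KP tumors, at 1.17, 0.452 and 1.31 CPM in the KP-PPARαΔ13 tumors, at 0.640, 1.20 and 1.35 CPM in the KPG1 tumors, and at 4.50, 0.768 and 0.554 CPM in the KPG1-PPARαΔ13 tumors. KPG1-PPARαΔ13 tumor 1 stood apart, with a 95% counting interval (exact Poisson) of 3.77 to 5.34 CPM, above that of the next tumor, KP tumor 3, at 1.56 to 2.65 CPM. Intervals of this kind cover counting error only. The log2 fold change was -0.45 ± 0.78 for induction in KP (edgeR adjusted p = 0.888), which was 0.01 without KP tumor 3, and 0.86 ± 0.78 for induction in KPG1 (adjusted p = 0.712), which was -0.69 without KPG1-PPARαΔ13 tumor 1. The difference of these 2 changes was 1.30 ± 1.10 (adjusted p = 0.655), or -0.24 without that tumor. KPG1 against KP gave -0.31 ± 0.77 (adjusted p = 0.960), which was 0.15 without KP tumor 3. The induced groups differed by 0.99 ± 0.78 (adjusted p = 0.674), or -0.56 without KPG1-PPARαΔ13 tumor 1.

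*Tppp3* (ENSMUSG00000014846; mm10 chromosome 8, 105467493 to 105471526, minus strand) was the least variable of the 6 tested genes. It stood at 11.5, 46.4 and 23.7 CPM in the KP tumors, at 6.68, 9.52 and 26.4 CPM in the KP-PPARαΔ13 tumors, at 23.7, 13.4 and 23.9 CPM in the KPG1 tumors, and at 27.6, 18.4 and 17.8 CPM in the KPG1-PPARαΔ13 tumors. Its highest tumor was KP tumor 2, where *Foxj1* stood at 1.21 CPM, and in the tumor with the highest *Foxj1* it stood at 27.6 CPM. The log2 fold change was -0.94 ± 0.56 for induction in KP (edgeR adjusted p = 0.564), which was -0.31 without KP tumor 2 and -1.75 without KP-PPARαΔ13 tumor 3, and 0.06 ± 0.55 for induction in KPG1 (adjusted p = 0.979), which was -0.19 without KPG1 tumor 2 and -0.17 without KPG1-PPARαΔ13 tumor 1. The difference of these 2 changes was 1.00 ± 0.79 (adjusted p = 0.625), and with 1 tumor left out it ran from 0.38 (KP tumor 2) to 1.81 (KP-PPARαΔ13 tumor 3). KPG1 against KP gave -0.42 ± 0.56 (adjusted p = 0.909), which was 0.21 without KP tumor 2, and the induced groups differed by 0.58 ± 0.56 (adjusted p = 0.738), from 0.25 without KP-PPARαΔ13 tumor 1 to 1.39 without tumor 3.

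*Sox2* (ENSMUSG00000074637; mm10 chromosome 3, 34650405 to 34652461, plus strand) was close to absent. It lies within the span of the longer noncoding gene *Sox2ot*, on the same strand, with 0 exon bases in common. It had 2, 1 and 5 counts in the KP tumors, 3, 5 and 7 in the KP-PPARαΔ13 tumors, 2, 1 and 5 in the KPG1 tumors, and 18, 21 and 4 in the KPG1-PPARαΔ13 tumors. KPG1-PPARαΔ13 tumors 1 and 2 were the highest, at 0.614 CPM (95% counting interval 0.364 to 0.970) and 0.672 CPM (0.416 to 1.03). The third tumor of that group, at 0.123 CPM (0.0335 to 0.315), lay among the others, so the groups overlapped. Without the filter on low counts, edgeR gave a log2 fold change of 2.25 ± 0.86 for induction in KPG1 (adjusted p = 0.528) and 0.87 ± 0.89 for induction in KP (adjusted p = 0.770). With so few reads, fold changes of *Sox2* among the other tumors were not detectable at this depth.

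Tumors of the same mouse also differed widely. In the KP mouse with 2 tumors, *Scgb3a2* was 17.0-fold higher in tumor 2 than in tumor 1 (71.1 against 4.18 CPM) and *Scgb3a1* was 8.31-fold higher. *Cyp2f2* went the other way, 16.5-fold higher in tumor 1 (77.2 against 4.67 CPM), as did *Scgb1a1*, by 5.17-fold. In the KPG1-PPARαΔ13 mouse with 2 tumors, *Scgb1a1* was 10.2-fold and *Foxj1* 8.13-fold higher in tumor 1 than in tumor 3, while *Cyp2f2* was 4.25-fold higher in tumor 3. The 2 KPG1 tumors of 1 mouse were closer, with ratios from 1.64-fold for *Cyp2f2* to 2.90-fold for *Scgb3a2*. Over the 3 same-mouse pairs the median difference in log2 CPM was 2.36 for *Scgb1a1*, 2.37 for *Scgb3a1*, 2.82 for *Scgb3a2* and 2.08 for *Cyp2f2*, beside 1.58, 1.83, 2.53 and 1.74 over the 9 pairs of the same group from different mice. For *Foxj1*, *Tppp3* and *Sox2* it was lower in the same mouse, at 0.85, 0.82 and 0.54 beside 1.01, 0.83 and 0.83. With 3 pairs this is a description, and over all genes tested the medians were 0.43 and 0.42.

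**Figure D3:**
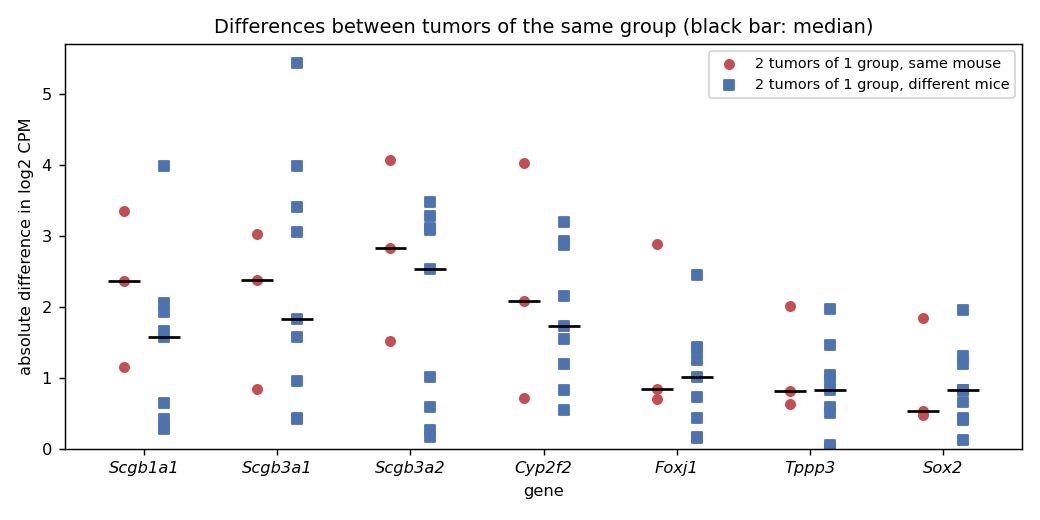
The absolute difference in log2 CPM between 2 tumors of 1 group is plotted for each gene, with circles for the 3 pairs from the same mouse, squares for the 9 pairs from different mice and black bars for medians. The widest same-mouse differences are 4.07 for *Scgb3a2* and 4.03 for *Cyp2f2*, both in the KP mouse.

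Other club cell genes, a list of 18, did not pass the test either. The test covered 15, of which 0 were called in any of the 5 comparisons by edgeR (0.0% to 0.0363% of all genes tested were). An unadjusted p under 0.05 was found for 5 of the 15 for induction in KP (11.4% of all genes), 3 for induction in KPG1 (10.8%), 3 for KPG1 against KP (6.23%), 3 between the induced groups (9.69%) and 5 for the difference of the induction changes (11.8%). limma voom called 0 with 1 to 5 at that threshold. DESeq2 called 1 to 2 in each comparison (*Bpifa1*, *Bpifb1* or *Gabrp*) with 3 to 7 at that threshold, and over all 16527 genes it called 372, 211, 60, 155 and 286 in the 5 comparisons. Their median log2 fold change was 0.32 for induction in KP and -0.63 for induction in KPG1. The 3 with the highest mean CPM were *Muc5b*, *Aox3* and *Bpifa1*. *Muc5b*, a gel-forming mucin, ran from 5.73 CPM in KPG1-PPARαΔ13 tumor 1 to 1565 CPM in KP-PPARαΔ13 tumor 3. *Aox3*, an aldehyde oxidase, ran from 28.3 CPM in KP-PPARαΔ13 tumor 1 to 752 CPM in KPG1 tumor 3. *Bpifa1*, a secreted defense protein of the airway, ran from 1.00 CPM in KP-PPARαΔ13 tumor 3 to 2022 CPM in KP tumor 2. The club cell genes therefore peaked in different tumors, as the 4 club cell members did.

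*Scgb3a1* and *Scgb3a2* were high in KP tumor 2 and KPG1-PPARαΔ13 tumor 2 together with other secretory genes. *Bpifa1* stood at 2022 and 345 CPM in these 2 tumors and at 1.00 to 184 CPM in the other 10. *Agr2* and *Fcgbp*, goblet cell genes chosen after their values were seen, were also highest in these 2 tumors. *Agr2*, which helps to fold mucins, stood at 304 and 46.8 CPM there and at 0.291 to 20.4 CPM elsewhere, and *Fcgbp*, a mucus protein, at 369 and 445 CPM there and at 0.397 to 101 CPM elsewhere. The other genes of the goblet cell list with a count did not share this order. The gel-forming mucin *Muc5ac* was highest in KP-PPARαΔ13 tumor 1 (68.8 CPM) and stood at 16.1 and 17.2 CPM in these 2 tumors. *Foxa3* was highest in KPG1 tumor 2, while *Spdef* and *Tff2* were highest in KPG1-PPARαΔ13 tumor 2, with *Tff2* lowest in KP tumor 2. The entry matched by the symbol *Clca1* alone (ENSMUSG00000056025) was highest in KP-PPARαΔ13 tumor 3. Whether it is the goblet cell gene of that name was not checked. The 8 genes of the goblet cell list, the *Clca1* entry included, summed to 23.1 to 710 CPM in KP and 48.6 to 101 CPM in KP-PPARαΔ13. In KPG1 the sum was 37.4 to 111 CPM and in KPG1-PPARαΔ13 51.2 to 536 CPM. *Itln1* stood at 0 in all 12 tumors. KP tumor 2 also had the lowest alveolar type 1 sum. Whether these cell types had a part in the values of *Scgb3a1* and *Scgb3a2* was not tested.

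**Figure D4:**
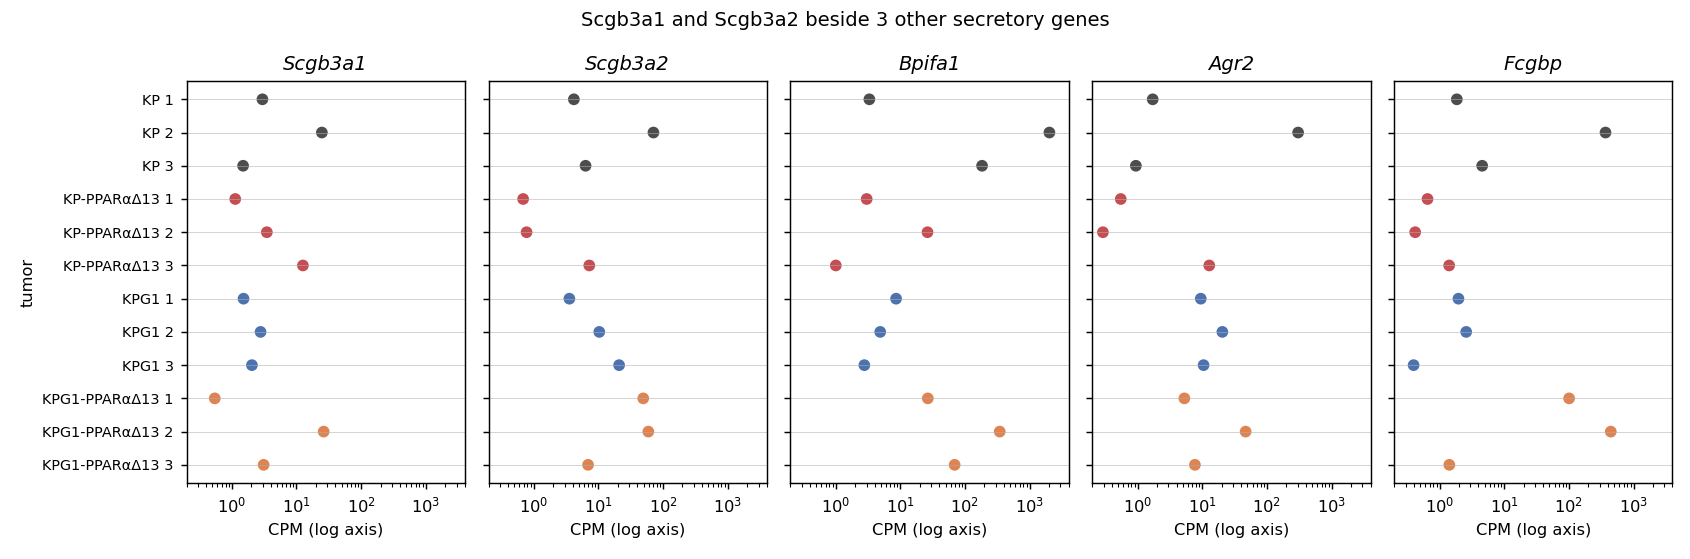
Each panel plots 1 gene in CPM on a log axis for the 12 tumors, colored by labelled group. KP tumor 2 and KPG1-PPARαΔ13 tumor 2 hold the 2 highest values of all 5 genes, and the other tumors differ in order from gene to gene. *Agr2* and *Fcgbp* were chosen after their values were seen. The club cell genes *Muc5b* and *Aox3*, not plotted, were highest in other tumors. Of all genes with a count, 13.5% were highest in KP tumor 2 and 5.7% in KPG1-PPARαΔ13 tumor 2.

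Motile cilium genes most often peaked in 1 tumor. The list of 38 motile cilium genes includes those of axonemal dyneins, radial spoke proteins and assembly factors. Of the 38 genes, 23 (60.5%) had their highest level in KPG1-PPARαΔ13 tumor 1, the tumor with the highest *Foxj1* and *Scgb1a1*. Of the 25469 genes with a count, 12.5% had their highest level in that tumor. *Ccdc153* stood there at 4.64 CPM against 0.0910 to 1.45 CPM in the other 11 tumors, *Cfap65* at 4.57 against 0.0910 to 1.65 CPM, and the outer arm dynein *Dnah5* at 4.64 against 0.274 to 1.98 CPM. These 3 were chosen after their values were seen, and so was the tumor. The other tumor of the same mouse was lower for 32 of the 38 genes, and it stood at 0.554 CPM of *Foxj1*. The 3 motile cilium genes with the highest mean CPM did not follow this order. *Sec14l3* (6.34 to 241 CPM) and *Cfap52* (4.01 to 26.6 CPM) were highest in KP-PPARαΔ13 tumor 3, and *Dnah11* (1.84 to 13.4 CPM) in KPG1-PPARαΔ13 tumor 2. The summed level of the 38 genes was also highest in KP-PPARαΔ13 tumor 3 (315 CPM), and it stood at 116 CPM in KPG1-PPARαΔ13 tumor 1. Over the labelled groups the list did not pass the test: 0 of the 31 tested were called in any comparison by edgeR (0.0% to 0.0363% of all genes tested were). An unadjusted p under 0.05 was found for 8 between the induced groups (9.69% of all genes), for 2 each for induction in KP (11.4%), induction in KPG1 (10.8%) and KPG1 against KP (6.23%), and for 1 for the difference of the induction changes (11.8%). limma voom and DESeq2 also called 0, with 2 and 9 at that threshold between the induced groups and 2 to 3 and 2 to 4 in the other comparisons.

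**Figure D5:**
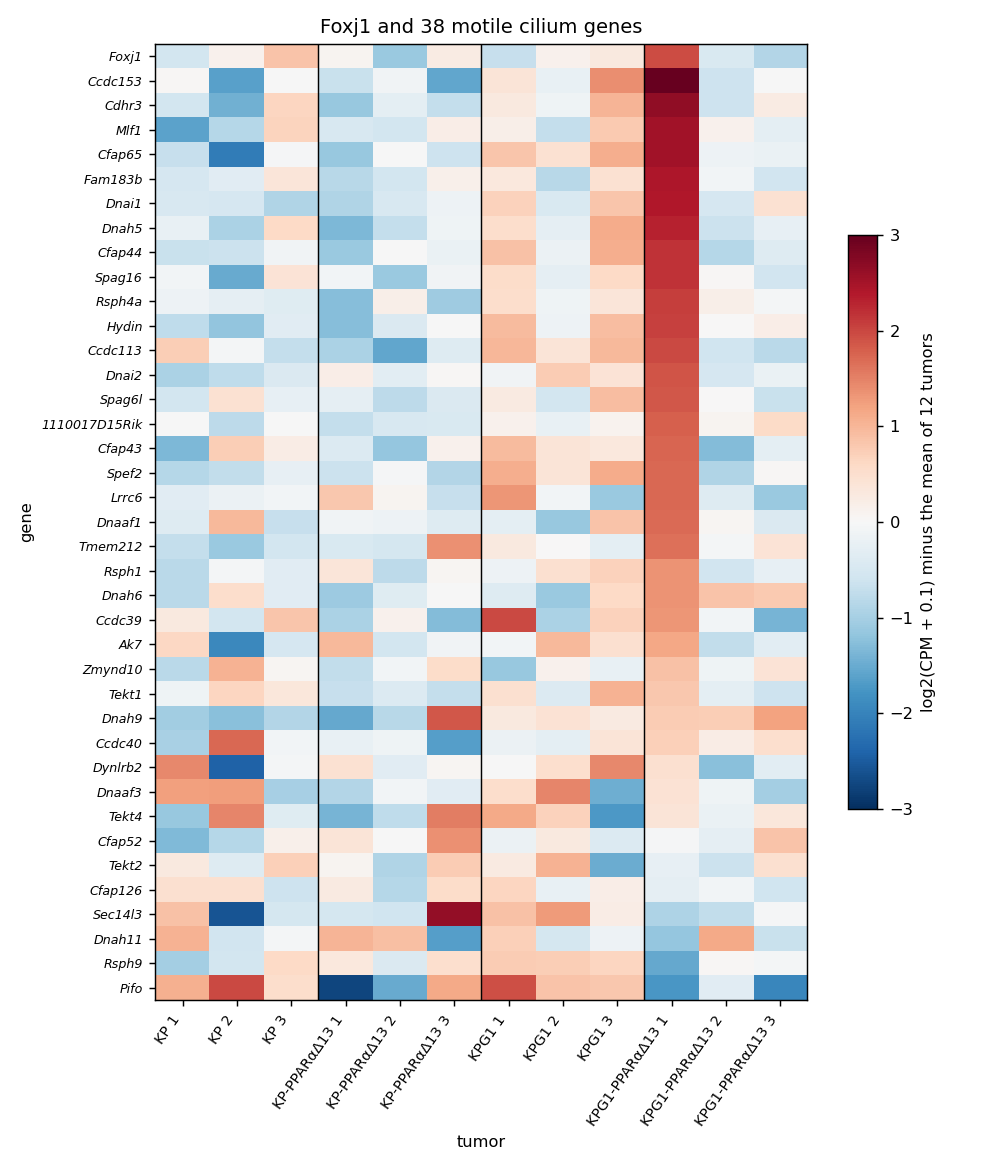
The heat map gives log2(CPM + 0.1) minus the mean of the 12 tumors for *Foxj1* and 38 motile cilium genes (rows) in the 12 tumors (columns), ordered below *Foxj1* by the value in KPG1-PPARαΔ13 tumor 1. That column is the highest for *Foxj1* and 23 of the 38 genes, and not for *Cfap52*, *Sec14l3* or *Dnah11*.

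Most regulators of multiciliated cell formation were low. Of 10 in the list 2 had a mean of at least 1 CPM. In KPG1-PPARαΔ13 tumor 1, 5 were highest, as were 12.5% of all genes with a count. Of these 5, *Trp73* (0.989 against at most 0.192 CPM elsewhere) and *Ccdc78* (1.60 against 0.925 CPM) stood clear of the other tumors. *Myb* (2.11 against 1.95 CPM), *Deup1* (0.443 against 0.435 CPM) and *Gmnc* (0.1023 against 0.1005 CPM) did not. In that tumor *Rfx3* (14.1 CPM) and the summed level of the list (25.7 CPM) were the lowest of the 12. The filter on low counts was passed by 6 of the 10. Of these 6, edgeR and limma voom called 0 in any comparison (edgeR called 0.0% to 0.0363% of all genes tested). By either, 0 to 1 had an unadjusted p under 0.05 (6.23% to 11.8% of all genes by edgeR). DESeq2 called *Myb* for the difference of the induction changes. The 3 with the highest mean were *Rfx3* (14.1 to 32.1 CPM) and *Rfx2* (4.36 to 14.9 CPM), factors for cilium genes that many cells express, and *Myb* (0.0344 to 2.11 CPM), which was highest in KPG1-PPARαΔ13 tumor 1. All 15 lung and airway lineage regulators were tested and 0 were called in any comparison by edgeR (0.0% to 0.0363% of all genes) or limma voom. At the unadjusted threshold 1 to 3 were found by either (6.23% to 11.8% of all genes by edgeR). *Nkx2-1* was highest in KPG1-PPARαΔ13 tumor 1 (533 CPM). The Notch receptor *Notch2* (107 to 242 CPM) and the Notch ligand *Jag1* (94.2 to 233 CPM), parts of the pathway that sets secretory against ciliated fate, had narrower ranges than the club cell genes. *Hes1*, a Notch target chosen after its values were seen, was called by DESeq2 in the comparisons of KP-PPARαΔ13 with KP and with KPG1-PPARαΔ13. It stood at 37.6 to 60.0 CPM in the KP tumors, 78.6 to 97.5 CPM in the KP-PPARαΔ13 tumors and 44.6 to 53.6 CPM in the KPG1-PPARαΔ13 tumors, and its edgeR fold change for induction in KP was 0.83 ± 0.20 on the log2 scale (adjusted p = 0.289).

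The 7 genes shared little of their pattern over the tumors in most of their pairs. Among their 21 pairs Pearson's r of log2 CPM ran from -0.49 (*Scgb1a1* and *Scgb3a1*) to 0.77 (*Scgb3a2* and *Tppp3*), with 1 pair over 0.5 and 7 below 0. *Foxj1* and *Tppp3* had an r of 0.41 and a Spearman's rho of 0.69. By rho *Scgb3a2* stood at 0.73 with *Tppp3* and at 0.51 with *Foxj1*, and the lowest rho was -0.38 (*Scgb3a1* and *Foxj1*). All of these are descriptions over 12 tumors of 9 mice that share libraries between genes. The genes most like each were ranked by r among 14103 other genes with a mean of at least 1 CPM. For *Scgb1a1* they were *Supt20* (r = 0.92 and 0.89 under its 2 identifiers, ENSMUSG00000027751 and ENSMUSG00000095832, between which reads may have been split), *Gm20633*, *Clk2* and *Wls*. For *Scgb3a1* they included *Nt5dc3* (0.94), *Stk35*, *Slc36a4* and *Lgalsl*, and for *Scgb3a2* they were *Scara5* (0.94), *Pde3b*, *Bmyc*, *Fam214a* and *Asb13*. For *Cyp2f2* they were *Tor3a* (0.96), *Tmem30a*, *Bsg*, *Phf11d* and *Dclk1*. For *Foxj1* they were *Kalrn* (0.86), *Gnao1*, *Gm15265*, *Ror2* and *Hspa2*, and for *Tppp3* they were *Nsd1* (0.94), *Simc1*, *Smpd5*, *Gm17259* and *Slc35f3*. For *Sox2* they were *Rarb* (0.92), *Clca3* (ENSMUSG00000028255, an entry separate from *Clca1* above), *Aplp1*, *Fam115a* and *Gm14414*, on counts as low as 1. None of the 35 entries is in the club cell, cilium or lineage lists, and ranking by Spearman's rho kept only 0 to 2 of each 5.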

How the data were processed

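PolyA RNA of the CD45-negative cells of 12 lung tumors was sequenced by the authors, who per the labels used bcl2fastq 2.17, Cutadapt 1.4.2, HISAT2, mm10 and featureCounts 1.4.4, and deposited whole-number read counts per gene. A table of log2 values deposited by the authors was not used. Strand settings of the counting were not given in the sources used here. The 12 tumor files equal the combined table, and columns of unmatched samples numbered 0.

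The 7 genes, the other lists and the tests were chosen with earlier results of these data known. Groups, replicate numbers and sex came from the labels. No source says that tumors are independent beyond their mouse, so p-values measure the spread between these tumors. Counts (25263794 to 32654223 per tumor) were tested with edgeR 4.0.16 (TMM, filterByExpr, glmQLFit, glmQLFTest; R 4.3.3), fitted jointly for the 12 tumors with 8 residual degrees of freedom, Benjamini-Hochberg adjusted p under 0.05. SE is the log2 fold change over the square root of F. log2 CPM used a prior count of 2, and TPM used GENCODE M21 exon lengths. Named genes are the 7, from 4 lists every gene called and the 3 with the highest mean CPM, the 5 nearest genes of each of the 7, *Ppara* and *Slc2a1*. Same-numbered tumors did not deviate together (r -0.19 to 0.13 over 18 pairs, 2 of them over 0.1). The fit was tested on simulated data. Alternatives were limma 3.58.1 voom, DESeq2 1.42.0, RLE factors, no filter, a mean of 20 TPM, sex, the replicate block, tumors of a mouse summed, and each tumor left out. Some items, among them an allele shared by all mice and 1 of the nearest genes, are not reported here.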

Additional observations from a re-analysis of the deposited data

How the results depend on the processing

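In 19 of 20 alternatives 0 of the 6 genes were called, and with a mean of 20 TPM, where *Foxj1* was not tested, 0 of 5. The lowest adjusted p of any was 0.138. Of 595 alternative fold changes, 560 kept their direction and 35, in 17 of the 30 values, did not. The cause of these changes was not tested. With sex as a covariate, *Scgb1a1* stood at 0.84, -1.36 and -2.20 (log2, induction in KP, in KPG1 and their difference) and *Cyp2f2* at -0.54 (induction in KP). With limma voom, *Scgb1a1* stood at -0.74 and -0.51 (induction in KPG1, difference) and *Scgb3a1* at -0.024 between the induced groups. With tumors of a mouse summed, *Scgb1a1* stood at -0.32 and -0.14 and *Tppp3* at -0.049 (induction in KPG1). Replicate numbers did not pair the tumors. With the replicate number as a block, *Scgb1a1* stood at 0.32, -0.50 and -0.82 and *Scgb3a1* at -0.27 between the induced groups, and 0, 2 and 3 of all genes were called for induction in KP, induction in KPG1 and the induced groups, beside 1, 1 and 5.

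Genes called over the whole table moved more. DESeq2 called 372, 211, 60, 155 and 286 in the 5 comparisons, beside 1, 1, 6, 5 and 0. Without the filter 2 were called for induction in KP, with voom 0 for induction in KPG1, with sex 0, 2 and 2 for induction in KP, KPG1 against KP and the induced groups, and with mice summed 0, 0, 2 and 2 in the first 4.

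Leaving out 1 tumor at a time turned the direction or moved the value by over 1.5 times in 27 of the 30 fold changes. The counts called ran from 0 to 1, 0 to 2, 2 to 6 and 2 to 10 in the first 4 comparisons. For induction in KP, the fold changes ran from -0.83 to 0.69 for *Scgb1a1*, -2.07 to 1.35 for *Scgb3a1*, -1.05 to 0.90 for *Cyp2f2* and -0.74 to 0.012 for *Foxj1*. For induction in KPG1 they ran from -2.05 to 0.73 for *Scgb1a1*, -0.21 to 2.79 for *Scgb3a1*, -0.69 to 1.29 for *Foxj1* and -0.19 to 0.18 for *Tppp3*. For KPG1 against KP they ran from -1.93 to 1.14 for *Scgb3a2*, -0.61 to 0.15 for *Foxj1* and -0.78 to 0.21 for *Tppp3*. Between the induced groups they ran from -0.22 to 2.56 for *Scgb1a1*, -1.64 to 2.11 for *Scgb3a1*, -1.77 to 0.25 for *Cyp2f2* and -0.56 to 1.43 for *Foxj1*, and for the difference from -1.60 to 1.17 for *Scgb1a1* and -0.24 to 1.74 for *Foxj1*. Depth limits *Sox2* and, less, *Foxj1*. For the other 5 genes the spread between tumors sets the precision.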

Other observations

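Some genes outside the 7 set KPG1-PPARαΔ13 tumor 1 apart beyond its cilium genes. They were chosen after their values were seen and were not tested for this pattern. *Upk3a*, a marker of a rare club cell type near neuroendocrine cells, stood at 21.9 CPM there and at 0.0343 to 1.94 CPM in the other 11 tumors. *Bpifb1*, a secreted airway defense protein, stood at 11.2 CPM there and reached 2.91 CPM in KPG1-PPARαΔ13 tumor 2 and 1.39 CPM in tumor 3, with 0.0323 to 0.895 CPM in the 9 tumors of the other groups. *Trp73*, a regulator of multiciliated cells, stood at 0.989 CPM there and at 0.0330 to 0.192 CPM elsewhere. In the same tumor *Muc5b* was the lowest of the 12, at 5.73 CPM, and *Scgb3a1*, at 0.546 CPM, was also the lowest.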
